A study of Mus musculus with 12 samples.

Results

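The genes described here are 40 mouse genes for histone acetyltransferases, their coactivators and the proteins that read acetylated lysine through a bromodomain. They were chosen by symbol as members of these families, and all 40 were found among the 19037 genes of the expression table. RNA was sequenced from AML12 cells in 12 libraries, 3 in each of 4 groups. AML12 is an established line that was derived from hepatocytes of a mouse carrying a human TGF-alpha transgene. The first group was given FK228 (romidepsin, an inhibitor of class I histone deacetylases, HDACs), and its libraries are titled HDI. The second overexpressed YF mutants of class I HDACs. The third had both and is called FK228+YF here, and the fourth was the control. Control and FK228 samples are coded GFP in their descriptions, with no explanation. The sources used here give no dose, time, promoter or construct. Since they also do not say whether replicates were separate cultures, p-values cover only the spread among the sequenced samples, and this spread may be technical.

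Histone acetyltransferases transfer acetyl groups from acetyl-CoA to lysines of histones and other proteins, and HDACs remove them. Bromodomains are small folds that bind acetylated lysine and bring remodelling enzymes, further acetyltransferases or the elongation machinery to acetylated chromatin. An HDAC inhibitor leaves the marks in place, so the genes below encode the writers and readers of the mark that the treatment acts on. In liver, CBP, p300 and the p160 coactivators are known as partners of nuclear receptors in metabolic gene control.

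Libraries held 23664446 to 26122998 estimated counts. The leading principal component of all genes accounted for 71.1% of the variance. Of the 4 class I HDAC genes, 1 rose and 1 fell with FK228, 2 rose with YF and 3 rose with FK228+YF. Hdac1 averaged 110 CPM (read counts scaled to a common library size) with FK228, 402 with YF, 798 with FK228+YF and 97.7 in control, while Hdac2 averaged 149, 189, 177 and 176, Hdac3 113, 113, 144 and 105, and Hdac8 16.5, 42.1, 38.7 and 17.9 CPM in the same order of groups. The counts do not tell a mutant copy from the cell's own gene. The labelled cell type was checked on its markers. Krt8 and Krt18, keratins of hepatocytes and bile duct cells, averaged 1010 and 1220 TPM (read share per transcript length) in control, and the hepatocyte factor Hnf4a 49.5 TPM. Alb, which encodes albumin, was near 0 in all 4 groups, with a mean of 0.02 TPM in control. The bile duct markers Spp1 and Krt19 stood at 3890 and 667 TPM in control. None of the 5 endothelial markers reached a mean of 1 TPM in any group.

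By read counts, 3 of 15 pairs of related members were called in opposite directions with FK228. On the deposited TPM none were, and neither count was made for other pairs of genes. Brpf1 and Brpf3 encode alternative scaffolds of MYST acetyltransferase complexes, and Baz2a and Baz2b encode large bromodomain partners of ISWI remodellers. These were 2 of the 3 pairs, with Trim24 and Trim33 the other. The promoters of the first 2 pairs are shown for that reason, from RefSeq on GRCm38.p6, 5′ to 3′ on the gene's strand. Each window runs from 250 bases before to 50 after an annotated start. Brpf1 lies at chr6:113306887-113307186, plus strand. Brpf3 lies at chr17:28800876-28801175, plus strand. Baz2a lies at chr10:128092533-128092832, plus strand. The Baz2b window lies at chr2:60125691-60125990, minus strand. It belongs to a start well inside the gene, which spans chr2:59899363-60209913, and not to the gene's 5′ end. The Baz2a and Brpf1 windows also belong to starts inside their genes, which span chr10:128091370-128129303 and chr6:113306863-113324862. Capitals mark matches, on either strand, to the Sp1 motif GGGCGG, the E2F motifs TTTCCCGC, TTTGGCGC and TTTCGCGC, the NF-Y motif CCAAT, the ETS motif CCGGAAGT, the NRF1 motif GCATGCGC and the TATA box TATAAA.
Brpf1: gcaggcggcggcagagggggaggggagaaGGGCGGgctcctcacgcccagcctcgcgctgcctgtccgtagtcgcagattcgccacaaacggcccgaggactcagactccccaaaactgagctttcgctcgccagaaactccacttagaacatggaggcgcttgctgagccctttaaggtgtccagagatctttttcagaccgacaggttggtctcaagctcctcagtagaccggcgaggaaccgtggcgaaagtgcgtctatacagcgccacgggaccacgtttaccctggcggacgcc
Brpf3: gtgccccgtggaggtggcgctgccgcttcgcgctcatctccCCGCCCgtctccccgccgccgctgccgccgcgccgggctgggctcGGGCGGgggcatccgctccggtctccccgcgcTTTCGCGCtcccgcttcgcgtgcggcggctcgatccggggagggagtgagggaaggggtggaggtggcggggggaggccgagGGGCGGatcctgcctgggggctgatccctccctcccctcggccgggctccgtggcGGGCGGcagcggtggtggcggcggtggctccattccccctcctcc
Baz2a: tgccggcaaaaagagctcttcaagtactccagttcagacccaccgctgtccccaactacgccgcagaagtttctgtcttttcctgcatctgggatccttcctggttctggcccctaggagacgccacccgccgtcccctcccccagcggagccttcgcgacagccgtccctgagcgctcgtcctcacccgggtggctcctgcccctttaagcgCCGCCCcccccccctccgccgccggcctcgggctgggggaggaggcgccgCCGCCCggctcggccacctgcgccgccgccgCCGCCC
Baz2b: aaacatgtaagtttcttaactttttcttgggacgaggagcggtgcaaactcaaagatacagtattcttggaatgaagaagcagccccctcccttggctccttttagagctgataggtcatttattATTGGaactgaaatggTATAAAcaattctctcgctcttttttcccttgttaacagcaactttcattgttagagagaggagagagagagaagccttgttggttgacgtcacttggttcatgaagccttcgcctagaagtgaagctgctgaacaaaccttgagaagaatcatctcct
The Brpf3 window held an E2F match at position -132 from the start site and several Sp1 matches, and the Brpf1 window a single Sp1 match. The Baz2a window was 71% G and C with Sp1 matches alone. The Baz2b window, at its start inside the gene, was 41.7% G and C, and held a TATA box and an NF-Y match. A match describes the letters of the window and says nothing of binding.

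Over the members, RefSeq windows were found for 32 genes, with 44 windows in all. GGGCGG stood in 68.2% of the members' windows, against 59.6% of 13611 windows of all tested genes. CCAAT stood in 25% against 38.4%, and TATAAA in 2.27% against 7.66%. CCGGAAGT stood in 11.4% against 7.57%, and GCATGCGC in 4.55% against 4.8%. Any of the 3 E2F motifs stood in 6.82% against 3.25%, which was 3 windows, those of Brd7, Phip and Brpf3. The median G and C content was 65.8% in the members' windows and 60% in all. The genes themselves were long, with a median span of 80 kb against 23.2 kb for all tested genes, and their longest proteins had a median of 1425 residues against 468 (GENCODE M21). Across the 40 members, Spearman's rho of the FK228 log2 fold change was 0.11 with genomic span, 0.22 with protein length and 0.06 with mean CPM, given as a description of genes that share the same libraries. Over all tested genes with a value, rho was 0.02, -0.03 and -0.12 in that order.

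In control, the members' levels per length covered a 115-fold range. Trim28, a corepressor that silences retroelements, was highest at 185 ± 9.78 TPM (SD, n = 3). Smarca4 (BRG1, an ATPase of SWI/SNF remodellers) followed at 55.5 ± 1.89, Brd2 at 50.7 ± 2.44, Kat5 at 48.7 ± 1.34 and Hat1 at 48.1 ± 8.02 TPM. Ncoa1 was lowest at 1.61 ± 0.0351 TPM, below Brwd3 at 1.84 ± 0.196 and Crebbp at 1.98 ± 0.437 TPM. Trim28 and Smarca4 each stood above the next gene without overlap of their libraries. In 29 of the 39 neighbouring pairs of this order the control libraries overlapped, the group from Brd2 to Hat1 among them. The median over members was 10.9 TPM. Summed over the 40 genes, levels were 540 ± 51 TPM with FK228, 816 ± 8.75 with YF, 518 ± 17.3 with FK228+YF and 829 ± 25.3 in control.

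FK228 lowered most of these genes. Against control, 30 of the 40 members fell and 3 rose, while 7 did not pass an adjusted p of 0.05 (edgeR's quasi-likelihood test, adjusted over 13346 genes). Of all genes tested, 35.5% fell and 33.2% rose in the same comparison. The members' median log2 fold change was -0.39, against -0.02 over all genes. In 29 of the 30 that fell and 2 of the 3 that rose, the FK228 and control libraries did not overlap, and 6 members fell by 2-fold or more. Neither overlap nor 2-fold falls were counted over all tested genes, so these counts have no share to stand against. Each call was repeated under 18 other settings, which were other scalings, filters and tests, a replicate block, and each library left out in turn. In bulk RNA, fewer cells of a kind and less RNA per cell cannot be told apart. Genes of dividing cells moved in the same comparison: all 12 proliferation markers fell, with a median log2 fold change of -1.99, and their summed level was 200 to 220 TPM with FK228 and 642 to 807 TPM in control. Their part in the members' changes was not tested.

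YF alone moved few members. Against control, 4 rose and 4 fell, and 32 were not called, where 18% of all genes rose and 14.6% fell. The median log2 fold change was -0.03 for members and 0.01 for all genes. Of the proliferation markers, 1 of 12 rose and none fell, and their summed level was 747 to 845 TPM with YF. With FK228+YF against control, 31 members fell and 5 rose, where 38.6% of all genes fell and 38.8% rose. The members that rose with YF and with FK228+YF include Smarca2, which did not rise in TPM. The median was -0.49 for members and 0.01 for all genes, and 11 members fell by 2-fold or more, which was not counted over all genes. The 12 proliferation markers all fell in this comparison too, to a summed 212 to 233 TPM. The 3 comparisons share the control libraries, so their counts are not independent of each other.

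**Figure D1:**
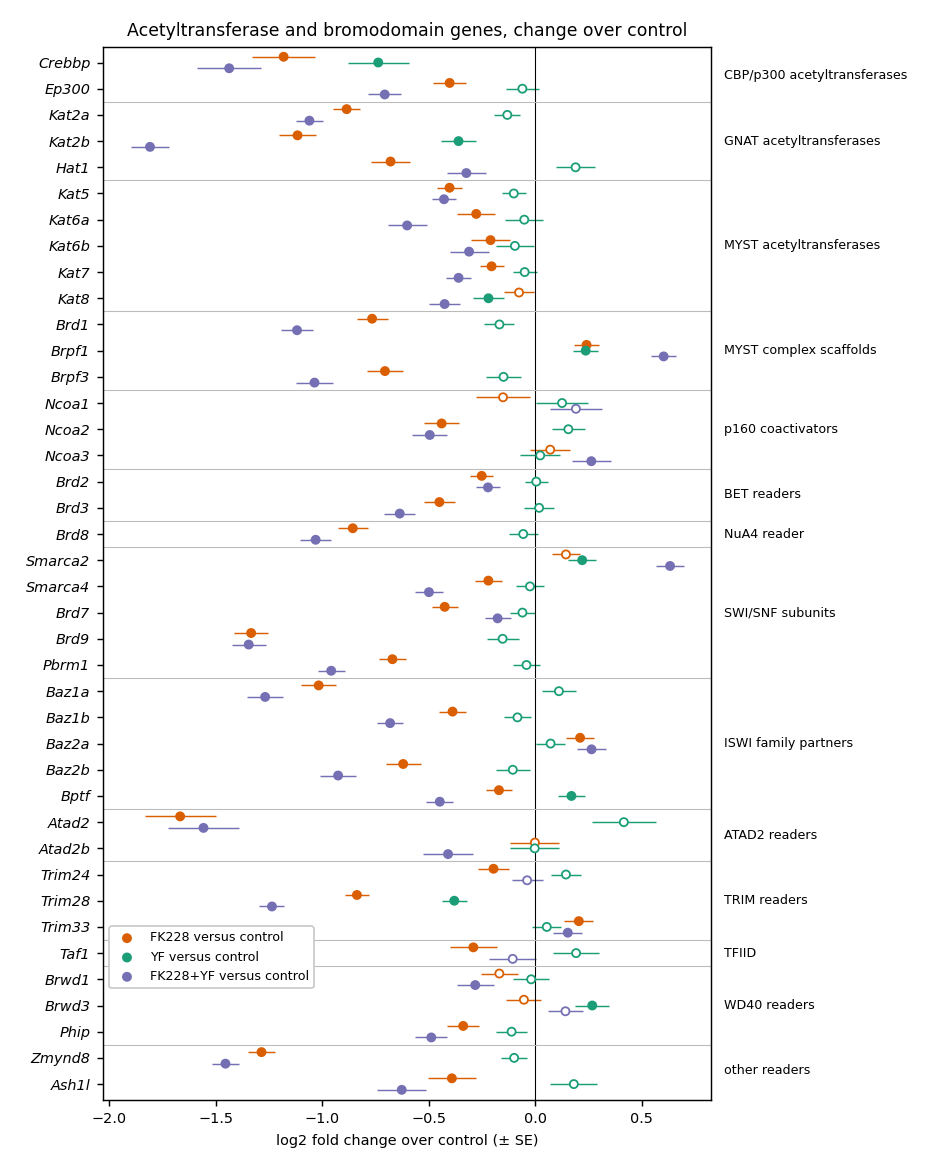
Log2 fold change over control (horizontal axis, ± SE) of the 40 genes, ordered by role, for FK228, YF and FK228+YF, with 3 libraries in each group. Filled points passed an adjusted p of 0.05 in edgeR; most FK228 and FK228+YF points lie left of 0, while most YF points are open and close to it, and Brpf1 lies right of 0 in all 3 comparisons.

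The paired coactivators CBP and p300 both fell with FK228. Crebbp, which encodes CBP and lies at chr16:4081334-4213957 (GRCm38.p6), had 8.28, 7.81 and 7.11 CPM with FK228, 12, 9.11 and 10.5 with YF, 6.67, 5.98 and 6.8 with FK228+YF and 13.3, 17.4 and 21.9 in control. All 3 treated groups lay below the control libraries, which were themselves spread widely. The log2 fold change was -1.18 ± 0.15 (adjusted p = 8.8e-07) with FK228, -0.74 ± 0.14 (adjusted p = 0.00059) with YF and -1.44 ± 0.15 (adjusted p = 4.77e-08) with FK228+YF. Ep300, which encodes p300, fell by less, with a log2 fold change of -0.40 ± 0.08 (adjusted p = 0.000108) with FK228 and -0.71 ± 0.08 (adjusted p = 5.24e-08) with FK228+YF, and was not called with YF. The log2 ratio of Crebbp to Ep300 was lower than in control by a shift of -0.74 with FK228, -0.66 with YF and -0.70 with FK228+YF. The libraries overlapped with control in the first of these.

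Among acetyltransferases of the GNAT family, Kat2b responded most. Kat2b (PCAF) and Kat2a (GCN5) are alternative catalytic subunits of the SAGA and ATAC coactivator complexes. Kat2b at chr17:53566774-53672721 had 15, 13.4 and 16.1 CPM with FK228, 26.4, 23.2 and 25.5 with YF, 9.26, 9.69 and 8.56 with FK228+YF and 33.6, 32.9 and 29.9 in control. The 4 groups did not overlap, with FK228+YF lowest. It stood at 46.2% of control with FK228, 77.9% with YF and 28.6% with FK228+YF by the fit, with log2 fold changes of -1.12 ± 0.09 (adjusted p = 3.01e-10), -0.36 ± 0.08 (adjusted p = 0.00201) and -1.81 ± 0.09 (adjusted p = 1.21e-13) in that order. It was also lower with FK228+YF than with FK228, by -0.69 ± 0.10 (adjusted p = 3.9e-06).

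Kat2a, with 41.7, 40.1 and 44.9 CPM with FK228, 72.2, 69.5 and 71.9 with YF, 37.5, 35.7 and 39 with FK228+YF and 78.4, 73.1 and 82.3 in control, changed by -0.88 ± 0.06 (adjusted p = 7.62e-11) with FK228 and -1.06 ± 0.06 (adjusted p = 2.02e-12) with FK228+YF. The YF libraries lay just below the control libraries, but the difference was not called. Hat1, which acetylates newly made histone H4 before it enters chromatin, averaged 36.2 ± 1.81 CPM with FK228, 66.1 ± 7.17 with YF, 46.4 ± 1.55 with FK228+YF and 58 ± 8.76 in control. Its log2 fold change was -0.68 ± 0.09 (adjusted p = 3.26e-06) with FK228 and -0.32 ± 0.09 (adjusted p = 0.00358) with FK228+YF. Unlike Kat2b, Hat1 was higher with FK228+YF than with FK228, by 0.36 ± 0.09 (adjusted p = 0.00379).

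The MYST acetyltransferases moved by less. Kat5 (TIP60, of the NuA4 complex) changed by -0.40 ± 0.06 (adjusted p = 3.29e-06) with FK228, and Kat7 (HBO1, tied to replication origins) by -0.20 ± 0.06 (adjusted p = 0.00304). Kat6a and Kat6b, which acetylate histone H3, changed by -0.28 ± 0.09 (adjusted p = 0.00992) and -0.21 ± 0.09 (adjusted p = 0.0468). The Kat6a call was lost without FK228 replicate 1 (adjusted p = 0.0806) or FK228 replicate 2 (adjusted p = 0.0538), and that of Kat6b in 16 of the 18 other settings, with the highest adjusted p of 0.178 without control replicate 1. With FK228+YF all 5 of the family fell, from -0.36 for Kat7 and -0.31 for Kat6b to -0.60 for Kat6a.

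Kat8 (MOF), the main acetyltransferase of lysine 16 of histone H4, was not called with FK228. It had 33.7, 30.4 and 28.7 CPM with FK228, 26.8, 29.1 and 28.1 with YF, 24.8, 23.7 and 24.5 with FK228+YF and 32.7, 31.8 and 33.4 in control. The YF libraries lay below control, and the FK228+YF libraries lowest of all, while the FK228 libraries overlapped with control. Kat8 changed by -0.22 ± 0.07 (adjusted p = 0.0217) with YF and -0.42 ± 0.07 (adjusted p = 1.68e-05) with FK228+YF. The YF call was lost without control replicate 3 (adjusted p = 0.0724), YF replicate 1 (adjusted p = 0.0949) or YF replicate 3 (adjusted p = 0.0609).

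The scaffold genes Brd1, Brpf1 and Brpf3, whose proteins tether the MYST enzymes to chromatin, did not move together. Brpf1 had 67.2, 64.9 and 62.5 CPM with FK228, 65.8, 64.6 and 63.6 with YF, 78.4, 82.6 and 89.1 with FK228+YF and 56.6, 55.6 and 52.4 in control. Every treated library exceeded every control library, and the FK228+YF libraries were highest. Brpf1 rose by 0.24 ± 0.06 (adjusted p = 0.00129) with FK228, 0.24 ± 0.06 (adjusted p = 0.00429) with YF and 0.60 ± 0.06 (adjusted p = 7.1e-09) with FK228+YF, and was higher with FK228+YF than with FK228 by 0.36 ± 0.06 (adjusted p = 2.98e-05). It was called higher in all 3 comparisons under all 18 other settings. On TPM as deposited, a scale added after seeing the data, its FK228 call was lost.

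Brpf3 had 19.2, 17.9 and 15.5 CPM with FK228, 23.3, 27.1 and 26.9 with YF, 14.3, 13.7 and 13.8 with FK228+YF and 29.4, 28.2 and 28.1 in control. FK228 and FK228+YF libraries lay well below control, and YF libraries slightly below without a call. Brpf3 changed by -0.70 ± 0.09 (adjusted p = 2.94e-07) with FK228 and -1.04 ± 0.09 (adjusted p = 6.17e-10) with FK228+YF. Brd1 had 29.8, 35.4 and 36.5 CPM with FK228, 50.3, 51 and 52.7 with YF, 24.7, 27.4 and 27.5 with FK228+YF and 60.2, 57.3 and 55.4 in control. It followed the same order of groups and changed by -0.77 ± 0.07 (adjusted p = 7.59e-09) with FK228 and -1.12 ± 0.07 (adjusted p = 1.14e-11) with FK228+YF. The log2 ratio of Brpf1 to Brpf3 was above control by 0.95 with FK228, 0.39 with YF and 1.64 with FK228+YF, with no overlap with control in any of them.

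**Figure D2:**
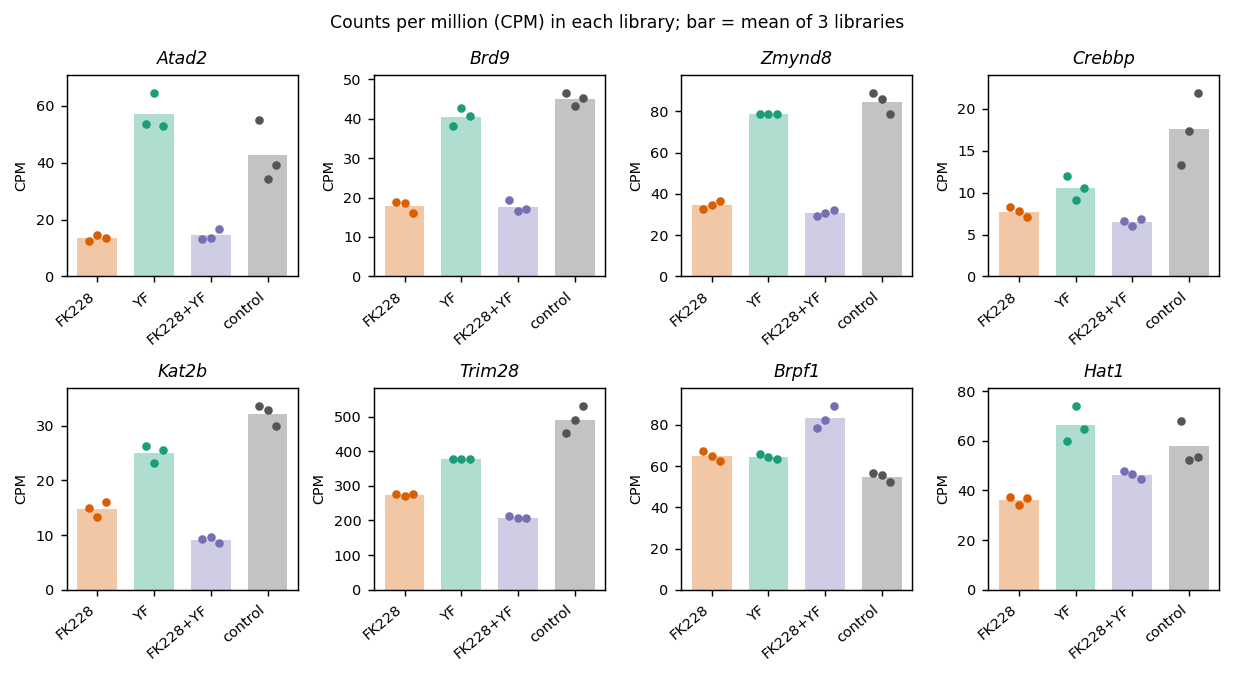
CPM (vertical axis) of 8 of the genes in each of the 12 libraries, with points for libraries and bars for the mean of 3. FK228 and FK228+YF libraries of Atad2, Brd9 and Zmynd8 lie far below both other groups, Kat2b and Trim28 step down in all treated groups, Brpf1 steps up, and Hat1 lies lower with FK228 than with FK228+YF.

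The p160 coactivators, which bridge nuclear receptors to CBP and p300, split. Ncoa2 had 24, 24.9 and 25.3 CPM with FK228, 35.3, 38.4 and 38.4 with YF, 23, 24.8 and 23.5 with FK228+YF and 37.7, 33.4 and 29.4 in control. It changed by -0.44 ± 0.08 (adjusted p = 6.77e-05) with FK228 and -0.49 ± 0.08 (adjusted p = 1.19e-05) with FK228+YF, and those libraries lay below all control libraries. Ncoa3 had 25.3, 27 and 31.3 CPM with FK228, 26.2, 27.4 and 27.2 with YF, 27.2, 33.1 and 35.1 with FK228+YF and 26.1, 24.9 and 28.6 in control. It rose by 0.26 ± 0.09 (adjusted p = 0.0138) with FK228+YF, where its libraries overlapped with control, and was not called with FK228 or YF. That call was lost without control replicate 2 (adjusted p = 0.0657), FK228+YF replicate 2 (adjusted p = 0.0527) or FK228+YF replicate 3 (adjusted p = 0.102). Ncoa1, the lowest member, was called in none of the 3.

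The BET readers Brd2 and Brd3, which link acetylated histones to transcription elongation, fell modestly. Brd2 changed by -0.25 ± 0.05 (adjusted p = 0.000372) and Brd3 by -0.45 ± 0.07 (adjusted p = 1.11e-05) with FK228. With FK228+YF the changes were -0.22 ± 0.05 (adjusted p = 0.000949) for Brd2 and -0.64 ± 0.07 (adjusted p = 6.33e-08) for Brd3, and the log2 ratio of Brd2 to Brd3 was above control by 0.20 with FK228 and 0.42 with FK228+YF. Brd8, a bromodomain subunit of NuA4, had 43.7, 43.3 and 41.8 CPM with FK228, 69.1, 80.2 and 75 with YF, 36.2, 38.2 and 39.8 with FK228+YF and 86, 73.5 and 73.8 in control. Both FK228 groups lay far below the others. Brd8 changed by -0.86 ± 0.07 (adjusted p = 8.32e-10) with FK228 and -1.03 ± 0.07 (adjusted p = 2.21e-11) with FK228+YF. Taf1, the largest subunit of TFIID, was called lower with FK228 at -0.29 ± 0.11 (adjusted p = 0.0283), although its libraries overlapped with control. The call was lost without control replicate 1 (adjusted p = 0.212), FK228 replicate 1 (adjusted p = 0.134) or FK228 replicate 3 (adjusted p = 0.0561). It was also lost with no count filter (adjusted p = 0.0689) and with the compared groups only (adjusted p = 0.0969).

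Subunits of SWI/SNF remodellers fell to different degrees. Brd9, of the non-canonical BAF complex, lies at chr13:73937801-73960895 and had 18.9, 18.5 and 16 CPM with FK228, 38, 42.6 and 40.6 with YF, 19.3, 16.5 and 17.2 with FK228+YF and 46.5, 43.1 and 45.1 in control. The 2 groups given FK228 overlapped each other and lay far below YF and control. Brd9 fell to 39.7% of control with FK228, a log2 fold change of -1.33 ± 0.08 (adjusted p = 5.31e-12), and changed by -1.34 ± 0.08 (adjusted p = 1.97e-12) with FK228+YF.

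Pbrm1 (BAF180, of the PBAF complex) had 52.7, 51.3 and 54.7 CPM with FK228, 79.7, 86.8 and 79 with YF, 41.2, 44.3 and 44.6 with FK228+YF and 90.1, 83.3 and 79.1 in control. It changed by -0.67 ± 0.06 (adjusted p = 5.64e-09) with FK228 and -0.96 ± 0.06 (adjusted p = 1.06e-11) with FK228+YF, and the FK228+YF libraries lay lowest. Smarca4 had 197, 213 and 221 CPM with FK228, 245, 239 and 239 with YF, 156, 179 and 184 with FK228+YF and 256, 232 and 246 in control. It changed by -0.22 ± 0.06 (adjusted p = 0.00466) with FK228 and -0.50 ± 0.06 (adjusted p = 4.36e-07) with FK228+YF. Brd7, also of PBAF, had 48.2, 46.6 and 44.3 CPM with FK228, 56.2, 64 and 59 with YF, 56.7, 56 and 52.6 with FK228+YF and 61.5, 63 and 62.2 in control. Its FK228 libraries lay lowest and its FK228+YF libraries between those and control. Brd7 changed by -0.42 ± 0.06 (adjusted p = 3.21e-06) with FK228 and -0.18 ± 0.06 (adjusted p = 0.0122) with FK228+YF, and was higher with FK228+YF than with FK228 by 0.25 ± 0.06 (adjusted p = 0.00199). The FK228+YF call against control was lost without FK228+YF replicate 3 (adjusted p = 0.0619).

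Smarca2 (BRM), the alternative ATPase to Smarca4, gave opposite answers on the 2 deposited scales. By counts it had 54.5, 54.6 and 57.5 CPM with FK228, 62.3, 56.2 and 57.2 with YF, 74, 79 and 80.7 with FK228+YF and 47.7, 54.4 and 48.6 in control. All treated libraries lay above control, with FK228+YF highest. The log2 fold change was 0.14 ± 0.06 (adjusted p = 0.0533) with FK228, which missed the threshold, 0.22 ± 0.06 (adjusted p = 0.0117) with YF and 0.63 ± 0.06 (adjusted p = 1.05e-08) with FK228+YF. The YF call was lost without control replicate 3 (adjusted p = 0.0525) or YF replicate 1 (adjusted p = 0.0721).

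In TPM, which divide by a transcript length estimated for each library, Smarca2 had 20.1, 20.7 and 23.1 with FK228, 31.3, 27 and 29.6 with YF, 21.9, 22.1 and 21.1 with FK228+YF and 27.9, 33.8 and 28.2 in control. Here the FK228 and FK228+YF libraries lay below all control libraries. On log2 TPM as deposited, tested with limma, the change was -0.49 with FK228 (adjusted p = 9.88e-05) and -0.46 with FK228+YF (adjusted p = 0.000127). The log2 ratio of CPM to TPM of Smarca2 was higher than in control by 0.53 with FK228, 0.33 with YF and 1.05 with FK228+YF. That of Atad2b was higher by 0.51, 0.11 and 0.54. These were the 2 members with an FK228 shift of 0.3 or more, a size reached by 0.49% of 11025 genes. GENCODE M21 lists 12 coding transcripts of 946 to 5921 bases for Smarca2 and 1 of 8035 bases for Atad2b. Which transcripts gave the reads was not tested, so the direction of Smarca2 is uncertain here.

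**Figure D3:**
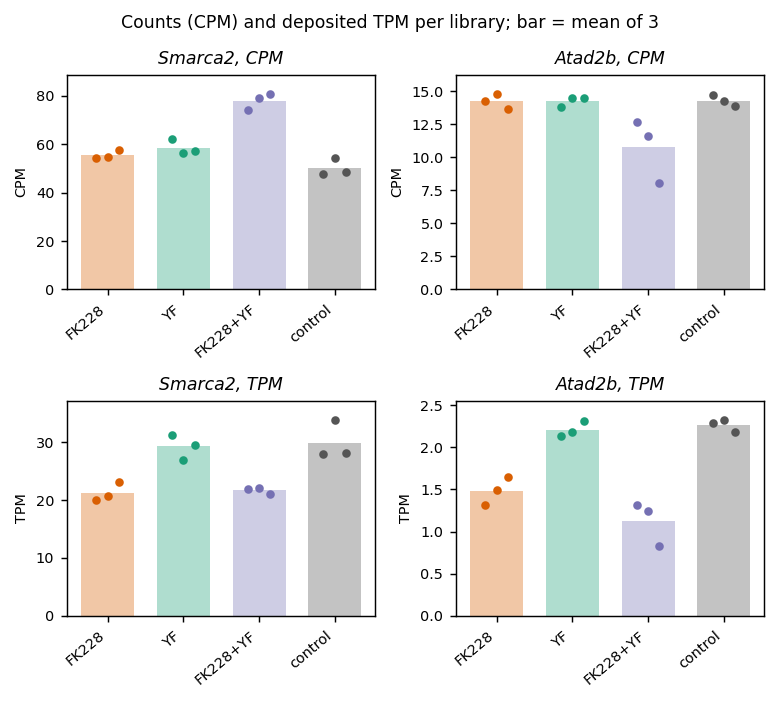
CPM (upper row) and deposited TPM (lower row) of Smarca2 and Atad2b in each library, with bars for the mean of 3. Smarca2 is highest with FK228+YF in CPM at a mean of 77.9, and lies at 21.7 TPM there against 30 TPM in control.

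Partners of ISWI remodellers included Bptf, which has the longest protein of the set, and 2 pairs. Baz1a (ACF1) had 19.8, 20.4 and 21.1 CPM with FK228, 43.7, 47.6 and 42.7 with YF, 18.7, 17.4 and 15.4 with FK228+YF and 46, 38.4 and 39.7 in control. Libraries with FK228, alone or with YF, were far below the others. Baz1a changed by -1.02 ± 0.08 (adjusted p = 7.46e-10) with FK228 and -1.27 ± 0.08 (adjusted p = 1.24e-11) with FK228+YF, while Baz1b (WSTF) changed by -0.39 ± 0.06 (adjusted p = 1.27e-05) and -0.68 ± 0.06 (adjusted p = 2.49e-09). The log2 ratio of Baz1a to Baz1b was below control by a shift of -0.62 with FK228 and -0.59 with FK228+YF.

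Baz2a (TIP5, of the nucleolar remodelling complex) had 118, 128 and 128 CPM with FK228, 117, 110 and 113 with YF, 117, 137 and 134 with FK228+YF and 117, 107 and 98.8 in control. It rose by 0.21 ± 0.07 (adjusted p = 0.00884) with FK228, where its libraries lay narrowly above control, and 0.26 ± 0.07 (adjusted p = 0.00131) with FK228+YF. The FK228 call was lost without control replicate 3 (adjusted p = 0.0718). Baz2b had 17.1, 16.6 and 19.8 CPM with FK228, 25.1, 26.6 and 24.8 with YF, 14.6, 13.5 and 15.3 with FK228+YF and 28.7, 26.6 and 26.9 in control. It changed by -0.62 ± 0.08 (adjusted p = 9.72e-07) with FK228 and -0.92 ± 0.08 (adjusted p = 1.81e-09) with FK228+YF, so that the log2 ratio of Baz2a to Baz2b was above control by 0.84 with FK228 and 1.19 with FK228+YF. Bptf, which reads methylated and acetylated histones for NURF, had 66.7, 69.6 and 71.8 CPM with FK228, 89.3, 83.9 and 90.2 with YF, 55.6, 57.6 and 58.4 with FK228+YF and 85.6, 72.9 and 75.6 in control. It was called lower with FK228 at -0.17 ± 0.06 (adjusted p = 0.0201) and with FK228+YF at -0.45 ± 0.06 (adjusted p = 1.43e-06), and higher with YF at 0.17 ± 0.06 (adjusted p = 0.0389). The YF libraries overlapped with control. The FK228 call of Bptf was lost in 7 and the YF call in 11 of the 18 other settings, among them those without control replicate 1 (adjusted p = 0.143 for FK228) and without control replicate 2 (adjusted p = 0.181 for YF).

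Atad2, a bromodomain ATPase that is known as an E2F target in proliferating human cells, had the lowest log2 fold change with FK228 of all members. It lies at chr15:58094044-58135525 and had 12.6, 14.4 and 13.4 CPM with FK228, 53.6, 64.5 and 53 with YF, 13.3, 13.5 and 16.8 with FK228+YF and 54.9, 34.1 and 39.2 in control. FK228 and FK228+YF libraries sat together far below the rest, and control libraries were spread widely. Atad2 fell to 31.5% of control with FK228, a log2 fold change of -1.67 ± 0.17 (adjusted p = 1.62e-06), and by -1.56 ± 0.17 (adjusted p = 1.84e-06) with FK228+YF. With YF the value was 0.42 ± 0.15 (adjusted p = 0.0506), and FK228 set directly against YF gave -2.08 ± 0.17 (adjusted p = 2.58e-07). By counts, its relative Atad2b was not called with FK228 or YF, and changed by -0.41 ± 0.12 (adjusted p = 0.00358) with FK228+YF. In TPM, Atad2b had 1.32, 1.49 and 1.65 with FK228, 2.14, 2.18 and 2.31 with YF, 1.32, 1.24 and 0.83 with FK228+YF and 2.29, 2.32 and 2.18 in control. On that scale the FK228 libraries lay below all control libraries, and limma on log2 TPM as deposited gave -0.58 with FK228 (adjusted p = 0.00469) and -0.97 with FK228+YF (adjusted p = 3.79e-05). The log2 ratio of Atad2 to Atad2b was below control by a shift of -1.64 with FK228 by counts, and by -1.12 in TPM. The proliferation markers Mki67, Ccna2 and Ccnb1 changed by -2.35 ± 0.08, -2.61 ± 0.09 and -2.69 ± 0.11 with FK228, and their relation to Atad2 was not tested.

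The TRIM proteins carry a plant homeodomain finger next to the bromodomain. Trim28 (KAP1) had 277, 271 and 276 CPM with FK228, 377, 378 and 377 with YF, 213, 206 and 206 with FK228+YF and 454, 489 and 530 in control. The 4 groups did not overlap. Trim28 changed by -0.84 ± 0.06 (adjusted p = 5.21e-11) with FK228, -0.38 ± 0.06 (adjusted p = 3.64e-05) with YF and -1.24 ± 0.06 (adjusted p = 4.42e-14) with FK228+YF, and FK228+YF lay below FK228 by -0.40 ± 0.06 (adjusted p = 7.63e-06). Trim24 had 27.7, 32.6 and 30.4 CPM with FK228, 40.3, 37.7 and 36.8 with YF, 31.7, 33.9 and 35.5 with FK228+YF and 36.1, 33.1 and 34.6 in control. It changed by -0.20 ± 0.07 (adjusted p = 0.0229) with FK228, a call lost without control replicate 1 (adjusted p = 0.0702), without FK228 replicate 1 (adjusted p = 0.185) and in 4 further settings. Trim33, which acts in TGF-beta signalling, had 51, 54.5 and 58.2 CPM with FK228, 49.1, 48.7 and 49.7 with YF, 50.2, 54.9 and 52.8 with FK228+YF and 51.6, 47.2 and 43.2 in control. It was called higher with FK228 at 0.20 ± 0.07 (adjusted p = 0.0114) and with FK228+YF at 0.15 ± 0.07 (adjusted p = 0.047), with libraries that overlapped with control in both. The FK228 call was lost without control replicate 3 (adjusted p = 0.0894) or FK228 replicate 3 (adjusted p = 0.0703), and the FK228+YF call in 11 of the 18 other settings, with the highest adjusted p of 0.275 without control replicate 3.

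Zmynd8, a reader found with corepressor complexes, fell in both FK228 groups. It lies at chr2:165784152-165898981 and had 32.9, 34.4 and 36.7 CPM with FK228, 78.8, 78.9 and 78.9 with YF, 29.4, 30.9 and 32.1 with FK228+YF and 88.9, 85.8 and 78.5 in control. All FK228 and FK228+YF libraries lay far below every YF and control library, and the YF libraries nearly coincided. Zmynd8 changed by -1.28 ± 0.06 (adjusted p = 2.11e-13) with FK228 and -1.45 ± 0.06 (adjusted p = 1.3e-14) with FK228+YF. Ash1l, a histone methyltransferase with a bromodomain, changed by -0.39 ± 0.11 (adjusted p = 0.00654) and -0.63 ± 0.11 (adjusted p = 0.000138). Of the WD40-repeat readers, Phip changed by -0.34 ± 0.07 (adjusted p = 0.000387) with FK228 and -0.49 ± 0.07 (adjusted p = 4.26e-06) with FK228+YF, and Brwd1 by -0.28 ± 0.09 (adjusted p = 0.00556) with FK228+YF. Brwd3 had 18, 19.3 and 19.3 CPM with FK228, 25, 23.5 and 22.3 with YF, 21.9, 20.6 and 22.4 with FK228+YF and 18.5, 21.4 and 18.9 in control. It rose by 0.27 ± 0.08 (adjusted p = 0.0138) with YF, where its libraries lay above control, and was not called with FK228 or FK228+YF against control. Set directly against YF, FK228 gave -0.32 ± 0.08 (adjusted p = 0.00179). The call of Brwd3 with YF against control was lost without control replicate 3 (adjusted p = 0.0566) or YF replicate 1 (adjusted p = 0.071).

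Related members were compared as a ratio within each library, which does not depend on library scaling. Of 15 pairs, 12 had ratios that did not overlap with control with FK228, 6 with YF and 14 with FK228+YF. Neither overlap nor opposite calls were counted for other pairs of genes, so these counts do not set related genes apart from others. Members of a pair were called in opposite directions in 3 pairs with FK228 (Brpf1 and Brpf3, Baz2a and Baz2b, Trim33 and Trim24), in no pair with YF, and in 4 with FK228+YF (Brpf1 and Brpf3, Baz2a and Baz2b, Ncoa3 and Ncoa2, Smarca2 and Smarca4). The FK228 calls of Baz2a, Trim33 and Trim24 were each lost in 1 or more of the other settings. So was the FK228+YF call of Ncoa3. On TPM as deposited, no member was called higher with FK228, and with FK228+YF only Brpf1 was. By counts, the Smarca2 to Smarca4 log2 ratio was above control by 0.37 with FK228, 0.25 with YF and 1.14 with FK228+YF. In TPM the shifts were -0.13, -0.04 and 0.14, and Smarca2 itself fell with FK228+YF in both fits of TPM, so that its place among the 4 pairs depends on the scale. Brd7 to Brd9 was above control by 0.91 with FK228 and 1.17 with FK228+YF. With 3 libraries against 3 the exact two-sided permutation test cannot go below p = 0.1, which is 0.141 after adjustment over the 45 ratios, so no ratio could pass.

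**Figure D4:**
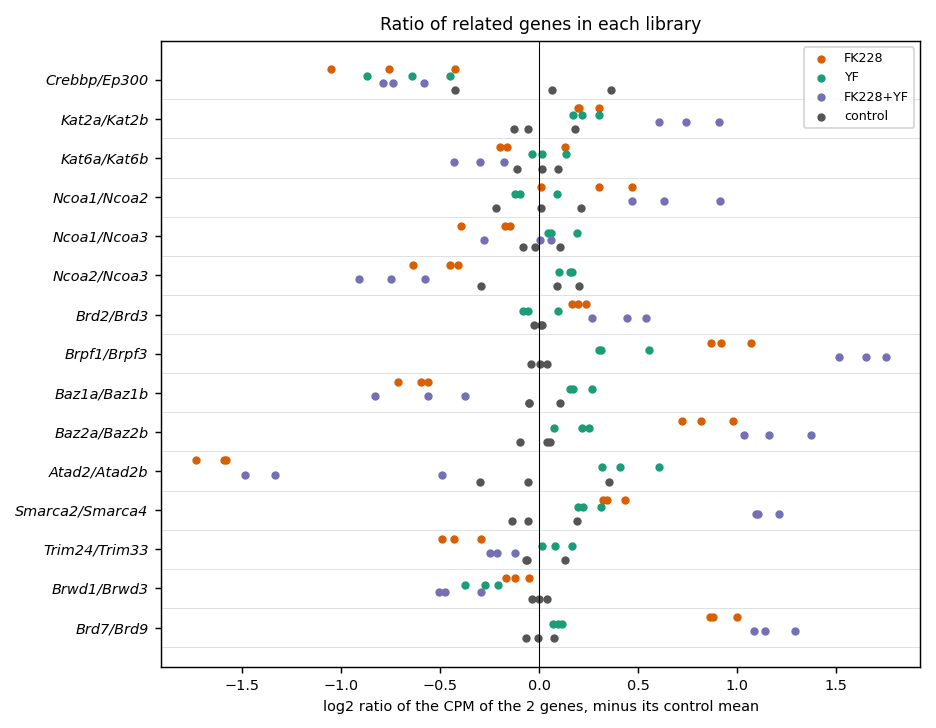
Log2 ratio of the CPM of 2 related genes in each library, minus the mean of the control libraries, for 15 pairs (rows); each point is a library. Brpf1/Brpf3 and Baz2a/Baz2b lie right of control with FK228 and further right with FK228+YF, Atad2/Atad2b lies left, and Crebbp/Ep300 lies left of control with YF.

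Most members fell with FK228 whether or not YF was present. Hdac1 averaged 402 CPM with YF and 798 with FK228+YF, so the YF background of these groups was not shown to be equal. The part of this difference in the members' changes was not tested. Against YF, FK228+YF lowered 32 members and raised 4, where 35.9% of all genes fell and 34.7% rose. Against FK228, FK228+YF lowered 19 and raised 5, where 26.3% fell and 26.6% rose. Of those 19, 12 kept their call under all other settings, and 5 kept it in both fits of TPM. Set directly against YF, FK228 lowered 30 members and raised 0, where 33.3% of all genes fell and 27.8% rose. At an unadjusted p under 0.05, 1 member (Trim33) was higher in FK228 than in YF, and DESeq2 called 3 (Baz2a, Kat8 and Trim33). Zmynd8 was called lower in FK228+YF than in FK228 at -0.17 ± 0.07 (adjusted p = 0.0367), but the call was lost without FK228 replicate 3 (adjusted p = 0.145), and its TPM gave the opposite sign.

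The FK228 effect with YF was compared with that without it as an interaction. Hdac1 itself had an interaction of 0.82 ± 0.08 (adjusted p = 4.45e-07), and its part in those of the members was not tested. It was called for 6 members, 2 higher and 4 lower, where 11.1% of all genes were called higher and 15.3% lower. For Bptf the FK228 effect was -0.62 ± 0.06 with YF and -0.17 ± 0.06 without, a difference of -0.45 ± 0.09 (adjusted p = 0.000824). For Brd7 it was -0.12 ± 0.06 with YF, which was not called, and -0.42 ± 0.06 without, a difference of 0.31 ± 0.09 (adjusted p = 0.0116). These 2 calls held in all 17 other settings that apply. The other 4 did not: Baz1a at -0.36 ± 0.12 (adjusted p = 0.0279), Smarca2 at 0.27 ± 0.09 (adjusted p = 0.0335), Smarca4 at -0.25 ± 0.09 (adjusted p = 0.0434) and Pbrm1 at -0.25 ± 0.09 (adjusted p = 0.0445) were each lost when single libraries were left out. The adjusted p was highest without FK228+YF replicate 3 for Baz1a (0.0904), control replicate 2 for Smarca2 (0.104), FK228+YF replicate 1 for Smarca4 (0.135) and control replicate 3 for Pbrm1 (0.114). Of the 13 members with an unadjusted interaction p under 0.05, the other 7 did not pass adjustment.

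**Figure D5:**
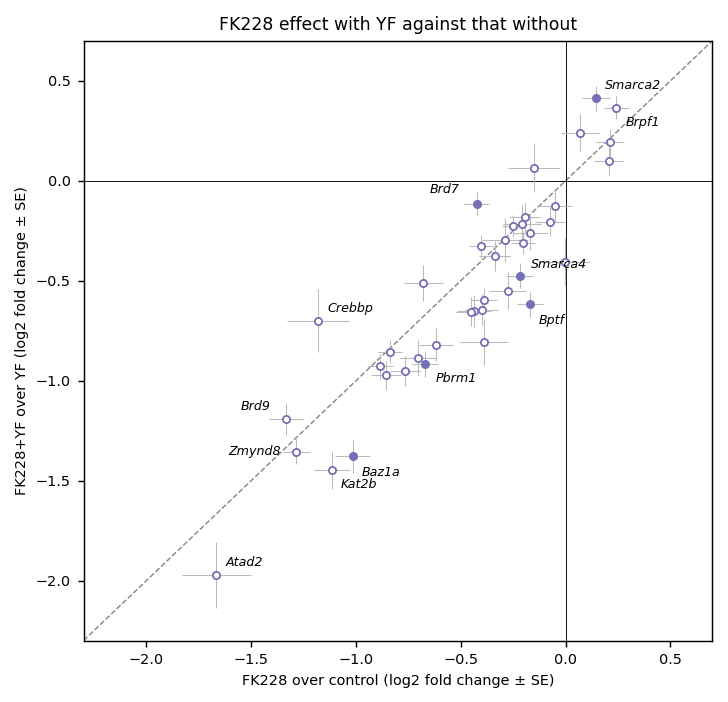
FK228 effect in YF cells (FK228+YF over YF, vertical axis) against that in control cells (FK228 over control, horizontal axis) for the 40 genes, as log2 fold changes ± SE; the dashed line marks equal effects. Filled points are the 6 members with a called interaction; Brd7 and Smarca2 lie above the line and Bptf, Baz1a, Smarca4 and Pbrm1 below it.

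Genes that work with the members in complexes were counted from lists drawn up by function. These counts stand against the shares over all tested genes, of which 35.5% fell and 33.2% rose with FK228, 14.6% fell and 18% rose with YF, and 38.6% fell and 38.8% rose with FK228+YF. With FK228 against control, 15 of 21 SAGA and ATAC subunits fell and 4 rose. Atxn7 changed by -0.69 ± 0.11, Mbip by -0.67 ± 0.08 and Supt20 by -0.54 ± 0.07. Of 15 NuA4 subunits, 8 fell and 2 rose, with Ruvbl1, an ATPase, at -1.15 ± 0.07, Epc1 at -0.91 ± 0.08 and Actl6a at -0.85 ± 0.07. Of 15 partners of the MYST enzymes, 13 fell and none rose, and Jade2, a scaffold used by Kat7, stood at 7.66 ± 0.477 CPM with FK228, 21.1 ± 1.85 with YF, 4.35 ± 0.0429 with FK228+YF and 28.7 ± 2.35 in control. Jade1 changed by -1.17 ± 0.11 and Ing5 by -0.61 ± 0.16. All 15 of this list fell with FK228+YF.

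Of 18 further SWI/SNF subunits, 15 fell and 1 rose with FK228. Arid1a, the subunit that defines canonical BAF, averaged 31.6 ± 1.87 CPM with FK228, 58.3 ± 0.462 with YF, 21.1 ± 0.339 with FK228+YF and 63.2 ± 5.43 in control. Smarcd3 changed by -1.15 ± 0.10 and Bcl7a by -1.02 ± 0.11. With YF alone 7 of the 18 fell and none rose, and with FK228+YF 15 fell and 1 rose. Of 8 tested ISWI partners, 6 fell and 1 rose, which was Cecr2, with Pole3 at -1.19 ± 0.12, Rsf1 at -0.78 ± 0.08 and the ATPase Smarca5 at -0.53 ± 0.06. Of 14 elongation factors that work with BET proteins, 7 rose and 4 fell. Ell2 averaged 46.1 ± 3.03 CPM with FK228, 27.2 ± 0.737 with YF, 48.8 ± 1.74 with FK228+YF and 21.9 ± 3.28 in control, Aff1 changed by 0.43 ± 0.07, and Larp7, which holds the elongation kinase inactive, by -0.66 ± 0.08.

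Acetyltransferases outside the members fell in 5 of 8 cases and rose in none. Esco2, which acetylates cohesin during replication, changed by -2.49 ± 0.13, Kat14 by -0.46 ± 0.07 and Naa60 by -0.30 ± 0.06. Of 6 other bromodomain genes tested, 3 rose and 1 fell. Cecr2, also counted among the ISWI partners, was one that rose, at 0.178 ± 0.127 CPM with FK228, 0.167 ± 0.117 with YF, 0.51 ± 0.136 with FK228+YF and 0.0129 ± 0.0224 in control, which is near 0 in all groups. Brdt, the BET gene of the testis, averaged 7.63 ± 0.488 CPM with FK228, 4.65 ± 0.594 with YF, 10.2 ± 0.895 with FK228+YF and 2.7 ± 0.516 in control. Kmt2a changed by 0.45 ± 0.08, and Zmynd11 by -0.68 ± 0.06. Of 7 acetyl-lysine readers without a bromodomain, 4 rose and 2 fell. Dpf3 changed by 1.71 ± 0.35 from a control mean of 0.258 CPM, Dpf1 by 0.85 ± 0.20 and Dpf2 by -0.39 ± 0.06.

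Markers of other cell types were read beside these changes. Hepatocyte markers summed to 2270 to 2440 TPM with FK228, 2450 to 2500 with YF, 1520 to 1910 with FK228+YF and 2570 to 2660 in control, and of 12 tested, 8 fell and 2 rose with FK228. Krt8 and Krt18 made up most of these sums. Hnf4a averaged 50.6 ± 3.32 CPM with FK228, 121 ± 5.81 with YF, 28.7 ± 1.24 with FK228+YF and 177 ± 7.51 in control. Bile duct markers summed to 4370 to 5490 TPM with FK228, 5240 to 5650 with YF, 3950 to 4540 with FK228+YF and 4470 to 4730 in control, and of 5 tested, 3 fell and 1 rose with FK228. The gene that rose was Spp1, which made up most of these sums. Krt19 averaged 172 TPM with FK228, 316 with YF, 108 with FK228+YF and 667 in control. Stellate cell and fibroblast markers summed to 10.5 to 12.2 TPM with FK228, 4.99 to 7.6 with YF, 12.3 to 14.5 with FK228+YF and 2.93 to 4.02 in control, and 2 of 4 tested rose with FK228. Most of that was Des, while Lrat and Reln stayed at or near 0. Macrophage and leukocyte markers summed to 38.6 to 45.2 TPM with FK228, 89.1 to 113 with YF, 61.8 to 70.6 with FK228+YF and 108 to 144 in control, and of 5 tested, 3 rose and 1 fell with FK228. Cd14 and Cd68 made up most of these sums, while Ptprc, Adgre1 and Clec4f, which define such cells, were below 1 TPM in all groups. Cd14 and Cd68 moved in opposite directions. Cd14 averaged 15.4 TPM with FK228, 7.85 with FK228+YF and 120 in control, and Cd68 averaged 23.1, 52.6 and 2.75 TPM in that order. The part of these genes in the members' changes was not tested.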

How the data were processed

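RNA was sequenced from 12 AML12 libraries, 3 in each of the FK228, YF, FK228+YF and control groups, which were taken from the sample titles. The estimated counts per gene were deposited by the authors and are not normalized; 16.6% of them were not whole, and they were rounded. The TPM values were also deposited by the authors. Per the submitters' processing notes, which give no role or order, the tools included RSEM 1.2.12, Bowtie2 2.2.5, HISAT2 2.0.4 and DESeq2 1.4.5, with the build GRCm38.p6. Another 40 columns of the table were not used. Library totals ran from 23664446 to 26122998. Replicates differed by more than counting error, with a mean chi-square per degree of freedom of 3.65 to 22.6 between libraries of a group.

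Genes were filtered with edgeR's filterByExpr, scaled by TMM and tested with edgeR's quasi-likelihood test (edgeR 4.0.16, R 4.3.3) in 1 fit of all 12 libraries with a term per group. P-values were adjusted by the Benjamini-Hochberg method over 13346 genes, and adjusted p-values under 0.05 were called. The adjusted p-values in the text come from this fit unless limma or DESeq2 is named. Values after ± are standard errors for log2 fold changes and SDs for CPM or TPM (n = 3). CPM are TMM-scaled. Other settings were DESeq2's size factors, no count filter, a filter at a CPM of 5 in 3 libraries, DESeq2 1.42.0, the compared groups only, the replicate number as a block, and each library left out in turn. Ratios of related genes were tested by an exact two-sided permutation test, adjusted over 45 ratios. The fit was checked on simulated data with known fold changes in a small share of the genes. That check does not test the scaling where most genes move. Limma 3.58.1 on log2(TPM + 0.1) was added after seeing the data, as deposited and centred on the median.

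Values in every library were given for members called without overlap of the groups and among the 8 largest absolute log2 fold changes of FK228, YF or FK228+YF against control or of the interaction, at a mean CPM of 1 or more, and for related pairs called in opposite directions. Of each list, up to 3 called genes with the largest FK228 change were named, at a mean CPM of 1 or more, which left out Cecr2 (named after its values were seen), and all class I HDACs. The members, lists and tests were chosen with earlier results of these data known.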

Additional observations from a re-analysis of the deposited data

Results flagged for a closer look

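The FK228 effect differed between YF and control cells for 6 members, by edgeR's interaction term on the log2 scale (effect with YF minus effect without). Of the 40 members, 2 were called higher and 4 lower, where 11.1% of all genes were called higher and 15.3% lower. For Bptf the difference was -0.45 (adjusted p = 0.000824) and for Brd7 0.31 (adjusted p = 0.0116), and neither call was lost under any of 17 other settings or on TPM. For Baz1a it was -0.36 (adjusted p = 0.0279), lost in 6 of 17 settings, where the adjusted p ran from 0.00464 to 0.0904. Smarca2 gave 0.27 (adjusted p = 0.0335), lost in 9 settings, with adjusted p from 0.0171 to 0.104. Smarca4 gave -0.25 (adjusted p = 0.0434), lost in 9 settings, with adjusted p from 0.016 to 0.135. Pbrm1 gave -0.25 (adjusted p = 0.0445), lost in 10 settings, with adjusted p from 0.0123 to 0.114. These 4 calls were also lost in both fits of TPM.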

How the results depend on the processing

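Under each of the 18 other settings, which exclude the TPM fits, 25 of the 30 members called lower with FK228 and 30 of the 31 called lower with FK228+YF kept their call. Over all 280 member values, 53 changed sign under 1 or more setting, 5 of them called values. Without the TPM fits 29 did, of which 0 were called. Both TPM fits were chosen after seeing the data, the centred one after the result of the other was seen, and neither sits on the TMM scale: the median of all genes moved by -0.099 with FK228 on TPM as deposited and by 0.128 on centred TPM.

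On TPM as deposited, members called higher numbered 0 with FK228, 2 with YF (2 lower), 1 with FK228+YF, 1 for FK228+YF against YF, 3 for FK228+YF against FK228 (5 lower) and 1 for the interaction (1 lower). On centred TPM they numbered 3 for FK228+YF against FK228, 4 for FK228 against YF and 1 for the interaction (1 lower). For FK228 against YF, the count higher was 3 with DESeq2's size factors, a CPM filter of 5, the compared groups only or DESeq2, and 2 with no filter. For the interaction it was 1 with no filter or with the replicate block, and 2 were lower with the block. Leaving out single libraries gave 1 to 4 higher with FK228, 1 to 9 with YF, 3 to 5 with FK228+YF, 2 to 4 for FK228+YF against YF, 0 to 2 for FK228 against YF, and 1 to 3 higher and 1 to 8 lower for the interaction.

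On TPM as deposited and centred, the log2 change of Smarca2 was -0.49 and -0.26 with FK228, -0.0316 and -0.12 with YF, -0.46 and -0.30 with FK228+YF, and -0.43 and -0.18 for FK228+YF against YF. It was -0.0330 for FK228+YF against FK228 on centred TPM. Brd7 gave 0.0081 for FK228+YF against YF on centred TPM, and Zmynd8 0.13 and 0.0709 for FK228+YF against FK228. For FK228 against YF on TPM as deposited, Kat8 gave -0.0278, Baz2a -0.0457 and Trim33 -0.0292. Ratio shifts in TPM were 0.15 for Brd2 to Brd3 with FK228, -0.73 with FK228 and 0.0624 with YF for Baz1a to Baz1b, -1.12 for Atad2 to Atad2b with FK228, and -0.13, -0.0386 and 0.14 with FK228, YF and FK228+YF for Smarca2 to Smarca4. Atad2b with FK228, uncalled and near 0 by counts, gave 0.0294 with DESeq2's size factors or DESeq2, 0.0078 with no filter, 0.0331 with the CPM filter and 0.0347 with the compared groups only, and -0.0243 to 0.0263 with single libraries left out. The cause was not tested. Same-numbered libraries correlated between -0.215 and 0.0887 in their deviations from the group means, and 1 of 12 libraries correlated best with its own number. The main fit therefore did not take the numbers as pairing the samples. Only the replicate block did so, as 1 of the other settings.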
